A study of Mus musculus with 12 samples.

Results

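AP-1 is a dimer of basic leucine zipper proteins. FOS proteins (c-FOS, FOSB, FRA-1 and FRA-2) cannot pair with themselves and bind DNA with a JUN partner, whereas JUN proteins (c-JUN, JUNB and JUND) also pair among themselves and with ATF proteins. In T cells, FOS and JUN genes are induced by antigen receptor signals through the MAP kinases, and AP-1 binds with NFAT, or with BATF and IRF4, at cytokine genes. The 10 genes described here were chosen by symbol and comprise the FOS genes *Fos*, *Fosb*, *Fosl1* and *Fosl2*, the JUN genes *Jun*, *Junb* and *Jund*, the ATF genes *Atf3* and *Atf2*, and *Mafk*, a small MAF protein without an activation domain of its own. All 10 were among the 32051 genes of the deposited table, 9 reached the minimum of 0.1 FPKM on average, as 13733 genes did, and 7 averaged 1 FPKM or more.

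The RNA came from Th9 cells, the IL-9-producing helper subset, on day 4 of culture. Naive CD4+ T cells from spleens of C57BL/6J mice, 6 to 8 weeks old by the study's methods, were polarized in all 4 groups with IL-4 at 10 ng/mL, TGF-β at 1 ng/mL, antibodies to IL-12 and IFN-γ, and stimulation through CD3 and CD28. The groups, with 3 libraries each, received DMSO (the vehicle), EpA (endomelipeptide A, a cyclic peptide from endophytic fungi, at 10 µM), fatostatin (an inhibitor of SREBP activation, labelled "DMSO+fato", at 5 µM), or EpA and fatostatin together. The labels do not say that replicates came from separate animals or cultures, so p-values measure only the spread between these libraries. Levels before polarization were not analysed here.

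Reads on genes, recovered from the FPKM values, came to 36019700 to 43656700 per library. T cell markers were abundant in all 12 libraries, *Cd4* at 78.1 to 92.2 FPKM and *Cd3e*, a subunit of the T cell receptor complex, at 40.0 to 54.2 FPKM. The 5 T cell markers in the table summed to 537 to 548 FPKM with DMSO, 477 to 482 with EpA, 527 to 543 with fatostatin and 462 to 466 with both. Among markers of other cells, the 3 NK genes summed to at most 0.105 FPKM, the 4 B cell genes to 5.19 to 8.62 FPKM, most of it *Cd79b*, and the 4 dendritic cell genes to at most 0.737 FPKM. CD8 T cell markers summed to 6.98 to 10.2 FPKM, most of it *Cd8b1* at 6.40 to 8.61 FPKM, and mast cell and basophil markers to at most 1.76 FPKM. In bulk RNA, fewer cells expressing a gene and less RNA of it per cell cannot be told apart.

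*Junb* was the most abundant member and *Fosl2* the only FOS gene above 1 FPKM. In the DMSO libraries the order by mean FPKM was *Junb* (142), *Jund* (60.4), *Atf3* (12.8), *Atf2* (8.27), *Fosl2* (6.00), *Mafk* (5.78), *Jun* (4.02), *Fos* (0.465), *Fosl1* (0.0745) and *Fosb* (0.0682). FPKM is scaled by gene length, so levels can be set against each other between genes where reads are counted alike. *Jund* and *Fosl1* shared 52.6% and 57.2% of their exon length with genes on the opposite strand. The strand setting of the counting was not stated, so the levels of these genes, and sums that hold them, are less certain. The libraries of *Fosl2* and *Mafk* overlapped in that order, as did those of *Fosl1* and *Fosb*, and every other pair of neighbours was separated. Over the 12 libraries *Junb* stood at the 98.3 percentile of the genes tested and *Jund* at the 93.5 percentile, whereas *Fos* stood at the 15.3 percentile. The FOS genes summed to 6.47 to 6.82 FPKM with DMSO and the JUN genes to 202 to 208 FPKM.

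**Figure D1:**
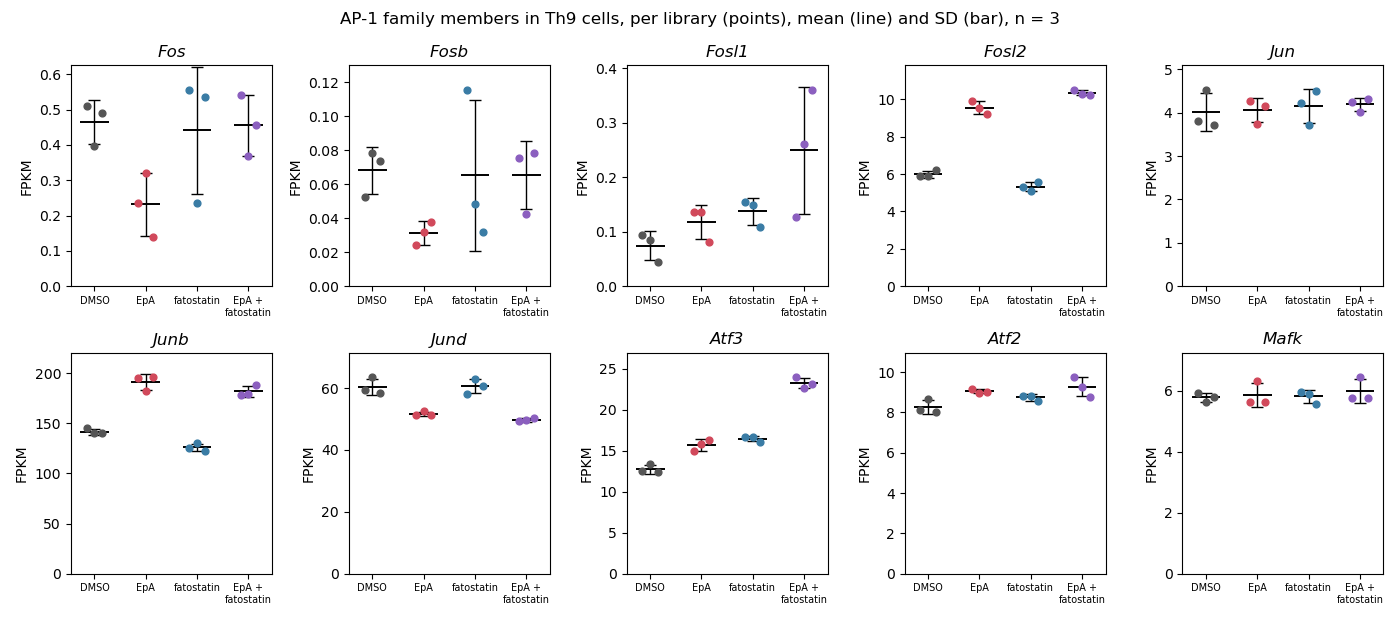
FPKM of the 10 AP-1 family genes (one panel each, vertical axes from 0 and different between panels) in the 4 groups of Th9 cells; points are libraries, lines are means and bars are SD (n = 3). *Fosl2* and *Junb* sat higher in both groups that received EpA, *Jund* lower, and *Atf3* was highest with both compounds, between 22.6 and 23.9 FPKM.

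EpA was set against DMSO to see how the peptide changed expression in polarizing Th9 cells. *Fosl2* and *Junb* rose, *Jund* fell, and *Atf3* and *Atf2* rose by smaller amounts, while *Jun* and *Mafk* did not pass the test. Of the 9 members tested, 4 were higher at a limma adjusted p below 0.05 and 1 was lower, against 14.3% and 13.1% of all genes tested. With a change of at least 1.5-fold in addition, 1 member was called, against 3.38% of all genes. The median log2 fold change of the members was 0.13, and that of all genes tested was 0.00.

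*Fosl2* encodes FRA-2, a FOS relative that lacks a strong activation domain and represses or activates according to its partner. It measured 5.88, 5.91 and 6.21 FPKM with DMSO and 9.90, 9.56 and 9.22 FPKM with EpA. All 3 EpA libraries were above all 3 DMSO libraries, and the 2 sets were separated by more than the range within either. The log2 fold change was 0.66 ± 0.04 (SE), that is 1.58-fold with a 95% interval of 1.49 to 1.69, at a limma adjusted p of 7.61e-07. This was the only member past both thresholds.

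*Junb* encodes the JUN protein that pairs with BATF at many helper T cell enhancers. The libraries held 145, 140 and 140 FPKM with DMSO and 196, 182 and 196 FPKM with EpA. The groups were separated, and the rise was 1.35-fold (95% interval 1.28 to 1.42; limma adjusted p = 3.96e-06), which stays under 1.5-fold over its whole interval. *Jund*, whose product is the JUN protein found in resting cells and is often described as a brake on proliferation, moved the other way. It had 59.2, 63.4 and 58.5 FPKM with DMSO and 51.4, 52.5 and 51.1 FPKM with EpA. Again no EpA library reached the lowest DMSO library, and the change was -0.22 ± 0.03 (SE) on the log2 scale, at a limma adjusted p of 0.000493. *Jun*, the classical c-JUN gene, had 3.81, 4.53 and 3.71 FPKM with DMSO and 4.27, 3.75 and 4.16 FPKM with EpA. These libraries overlapped, and the interval of the fold, 0.886 to 1.16, holds changes of either direction but not 1.5-fold (limma adjusted p = 0.914).

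Because *Junb* and *Jund* moved apart, their balance within each library changed more than either gene. *Junb* FPKM over *Jund* FPKM was 2.21 to 2.45 in the DMSO libraries, 3.47 to 3.83 with EpA, 2.02 to 2.15 with fatostatin and 3.60 to 3.74 with both compounds. Every library with EpA lay above every library without it. Of the summed FPKM of the 10 members, *Junb* made up 59.2% on average with DMSO and 66.5% with EpA, and *Jund* 25.2% and 18.0%. *Fosl2* made up 89.9 to 91.4% of the FOS genes' FPKM with DMSO, 95.1 to 97.3% with EpA, 86.6 to 92.2% with fatostatin and 92.0 to 93.9% with both, so that the last 2 groups overlapped. The JUN genes' FPKM exceeded that of the FOS genes 29.7 to 32.2 times with DMSO and 23.7 to 26.5 times with EpA. These ratios do not depend on the scaling of a library, but each is a ratio of RNA levels and not of proteins. The size of the *Junb* to *Jund* ratio also depends on how reads on the shared exon bases of *Jund* were counted.

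**Figure D2:**
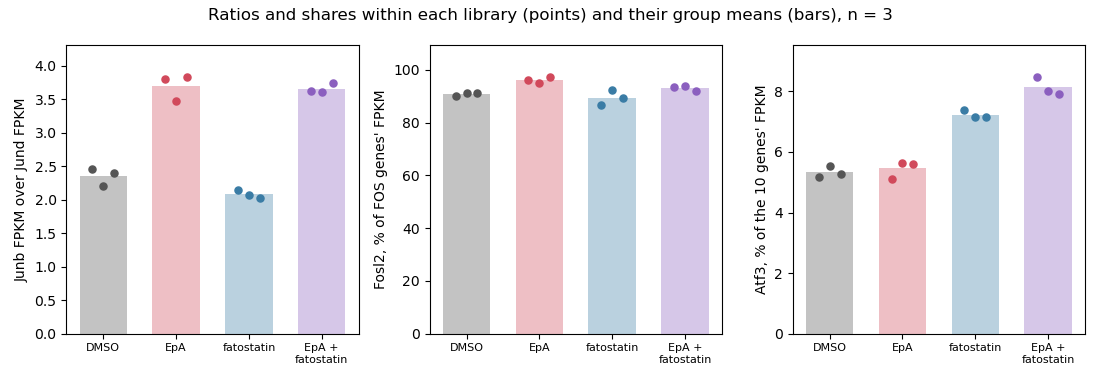
Ratio of *Junb* to *Jund* FPKM (left), share of *Fosl2* in the FPKM of the 4 FOS genes in percent (middle) and share of *Atf3* in the FPKM of the 10 members in percent (right); points are libraries and bars group means from 0 (n = 3). The *Junb* to *Jund* ratio was at most 2.45 without EpA and at least 3.47 with it, whereas the *Atf3* share was highest with both compounds.

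The other FOS genes were near the limit of detection. *Fos*, the prototype immediate early gene, had 0.511, 0.395 and 0.489 FPKM with DMSO and 0.235, 0.320 and 0.141 FPKM with EpA, from 14 to 50 reads per library. The EpA libraries were all below the DMSO libraries, yet the change of -0.80 ± 0.28 (SE) on the log2 scale, with a 95% interval of -1.41 to -0.19, missed the threshold at a limma adjusted p of 0.0533. Without EpA replicate 2 the log2 fold change was -0.99 and the adjusted p 0.0370. In a fit of the 2 groups alone the adjusted p was 0.0483, and voom on recovered reads, a count-based fit in limma, gave a log2 fold change of -1.06 and 0.0312. These were the only 3 of 15 alternatives in which *Fos* passed. The limma adjusted p was highest, 0.183, without EpA replicate 3, and with a library left out the log2 fold change ran from -0.99 to -0.58. *Fosl1*, encoding FRA-1, an ERK-responsive FOS relative, was counted with 4 to 7 reads with DMSO and 7 to 11 reads with EpA, and its log2 fold change of 0.32 had an interval of -0.28 to 0.91 (limma adjusted p = 0.434). *Fosb* was under the minimum, at 0.0525, 0.0784 and 0.0737 FPKM with DMSO and 0.0242, 0.0322 and 0.0378 FPKM with EpA. That is 12 to 20 reads against 6 to 10, so the groups did not overlap, and in a fit without a minimum the adjusted p of *Fosb* was 0.230.

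Both ATF genes were expressed in every library. *Atf3*, a stress-induced gene whose homodimer represses transcription, measured 12.5, 13.4 and 12.4 FPKM with DMSO and 14.9, 15.8 and 16.3 FPKM with EpA. The groups did not overlap, and *Atf3* rose 1.23-fold (95% interval 1.15 to 1.30; limma adjusted p = 0.000251). *Atf2*, which binds cAMP response elements and is activated by the p38 and JNK kinases, had 8.12, 8.68 and 8.03 FPKM with DMSO and 9.16, 8.96 and 9.01 FPKM with EpA. The lowest EpA library lay just above the highest DMSO library, for a 1.09-fold rise at a limma adjusted p of 0.0407. Leaving out 1 library ended that call in 5 of 6 cases, with adjusted p of 0.117 without DMSO replicate 1, 0.135 without DMSO replicate 3, 0.111 without EpA replicate 1, 0.0750 without EpA replicate 2 and 0.0836 without EpA replicate 3. With all libraries kept it was also lost without a minimum (0.0549), on TPM (0.0653), with only the groups compared (0.0509) and with no trend (0.0525). *Mafk* had 5.92, 5.62 and 5.79 FPKM with DMSO and 5.64, 6.30 and 5.64 FPKM with EpA, and the interval of its fold, 0.928 to 1.11, lay around 1.

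**Figure D3:**
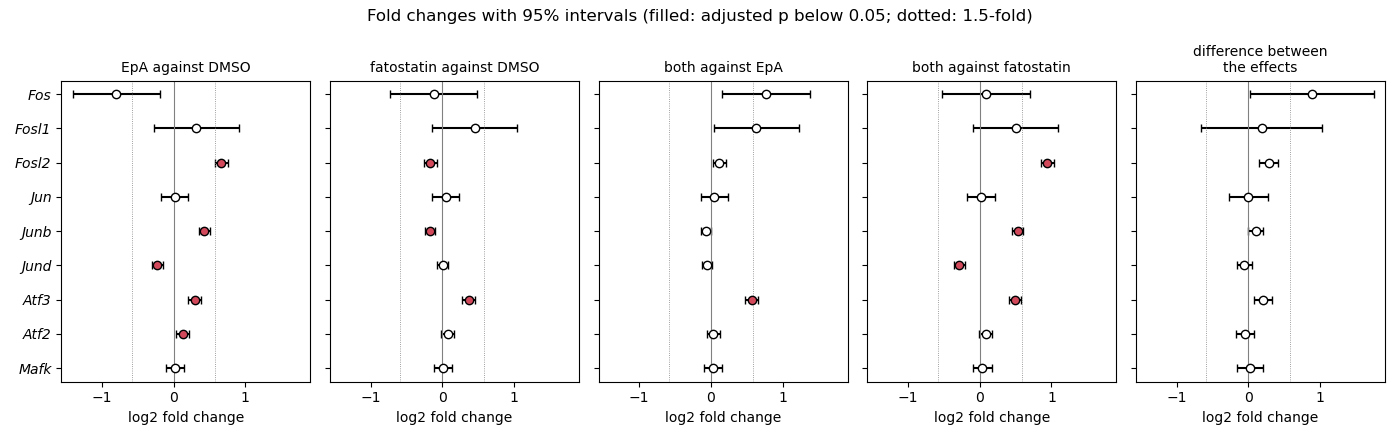
Log2 fold changes of the 9 members tested (rows) in the 4 comparisons and, in the panel on the right, how far the effect of EpA beside fatostatin exceeded that of EpA alone; bars are 95% intervals, filled points have an adjusted p below 0.05 and dotted lines mark 1.5-fold. *Fosl2*, *Junb* and *Jund* were called in both comparisons of EpA, *Atf3* in all 4, and no point in the panel on the right is filled.

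Fatostatin alone was set against DMSO to see what this compound did without the peptide. Whether its effects came from inhibition of SREBP was not tested. *Fosl2* and *Junb* fell slightly and *Atf3* rose. Of 9 members, 1 was higher, against 7.69% of all genes, and 2 were lower, against 6.31%. None changed by at least 1.5-fold as well, against 1.86% of all genes, and at an unadjusted p under 0.05 the limma count was 3 members, against 26.8% of all genes. This comparison shares its DMSO libraries with the one of EpA.

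*Fosl2* had 5.32, 5.10 and 5.59 FPKM with fatostatin, all below the 5.88 of the lowest DMSO library. It changed by -0.17 ± 0.04 (SE) on the log2 scale, with 0.0196 as the limma adjusted p. The call was lost without DMSO replicate 3 (adjusted p = 0.0783), without fatostatin replicate 1 (0.0557), without fatostatin replicate 2 (0.0734) and in a fit of the 2 groups alone (0.0797). *Junb*, at 125, 130 and 123 FPKM, also lay wholly below DMSO and fell by 0.17 on the log2 scale (SE 0.03; limma adjusted p = 0.00553). *Atf3*, at 16.6, 16.7 and 16.1 FPKM, lay wholly above DMSO and rose 1.29-fold (95% interval 1.21 to 1.37; limma adjusted p = 0.000101). The remaining members moved less or had wider intervals. *Jund*, with 58.2, 62.9 and 60.7 FPKM, overlapped DMSO, and the interval of its log2 fold change was -0.07 to 0.08. *Atf2* had 8.84, 8.83 and 8.56 FPKM, *Mafk* 5.96, 5.90 and 5.57 FPKM and *Jun* 4.23, 3.72 and 4.51 FPKM, and each overlapped DMSO. *Fos* had 0.556, 0.235 and 0.535 FPKM, replicate 2 being the low one at 22 reads. *Fosb*, under the minimum, had 0.116, 0.0482 and 0.0316 FPKM from 32, 12 and 8 reads, a range that held all 3 DMSO libraries, and *Fosl1*, at 9 to 14 reads, lay above DMSO with an adjusted p of 0.328.

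When fatostatin was added to EpA, *Atf3* was the 1 member of 9 that was higher, against 9.22% of all genes. This comparison shares the EpA libraries with EpA against DMSO. No member was lower, against 6.79% of all genes, and none was past both thresholds, against 1.99%. At an unadjusted p under 0.05 the limma count was 4 members (*Fos*, *Fosl1*, *Fosl2* and *Atf3*), against 28.7% of all genes, and voom called 2 members, against 19.3%.

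*Atf3* measured 23.9, 22.6 and 23.1 FPKM with both compounds, far above the 16.3 FPKM of the highest EpA library. The fold was 1.48 (95% interval 1.39 to 1.57; limma adjusted p = 3.17e-06), just short of 1.5. Leaving out EpA replicate 3 raised it to 1.51. *Junb* had 178, 179 and 188 FPKM and *Jund* 49.2, 49.7 and 50.4 FPKM with both compounds. *Junb* overlapped the EpA libraries and *Jund* lay below them, and neither passed the test (limma adjusted p = 0.186 and 0.322). *Fosl2*, at 10.5, 10.3 and 10.2 FPKM, lay above every EpA library by a small step, with a log2 fold change of 0.11 at a limma adjusted p of 0.0874, and voom on recovered reads gave 0.0181. *Fos* came to 0.540, 0.368 and 0.457 FPKM, above every EpA library and spanning the DMSO values, a change of 0.77 ± 0.28 (SE) on the log2 scale with 0.0876 as the limma adjusted p. *Fosl1* was spread over 0.127, 0.260 and 0.360 FPKM, from 11, 22 and 30 reads. Its adjusted p was 0.146 in limma and 0.0384 without EpA and fatostatin replicate 1. *Jun* (4.25, 4.03 and 4.31 FPKM), *Atf2* (9.74, 9.27 and 8.79 FPKM) and *Mafk* (5.74, 6.43 and 5.75 FPKM) overlapped their EpA values.

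**Figure D4:**
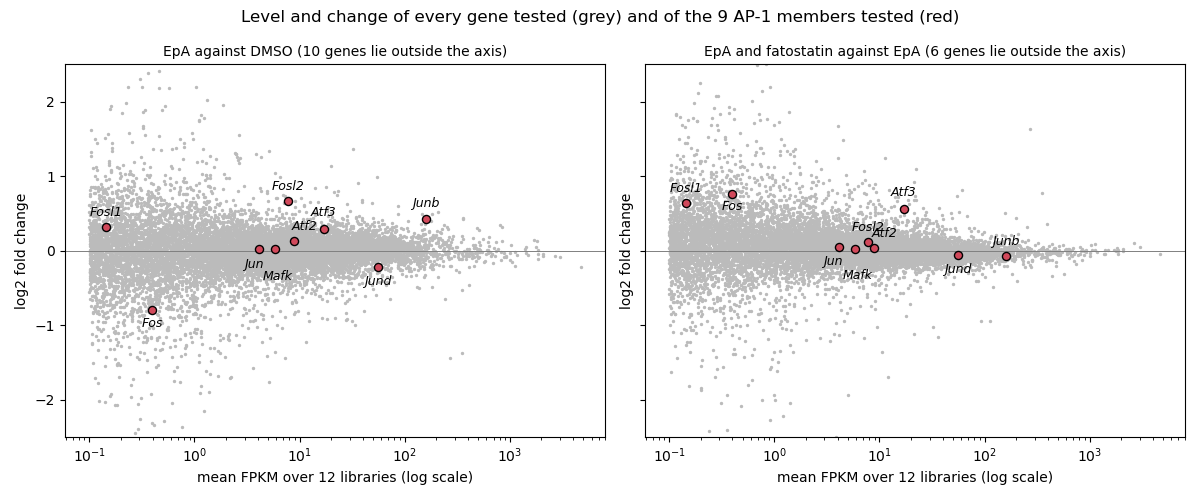
Mean FPKM over 12 libraries (horizontal, log scale) against log2 fold change (vertical) of all 13733 genes tested (grey) and the 9 members tested (red), for EpA against DMSO (left, 10 genes outside the axis) and EpA and fatostatin against EpA (right, 6 genes outside). *Fosl2* (0.66) and *Junb* (0.43) lie above 0 on the left and near 0 on the right, where *Atf3* lies at 0.57.

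The effect of EpA was also measured beside fatostatin, in EpA and fatostatin against fatostatin. Of the 9 members, 3 were higher, against 16.2% of all genes, 1 was lower, against 13.3%, and 1 was past both thresholds, against 3.75%. *Fosl2* rose 1.92-fold (95% interval 1.81 to 2.05; limma adjusted p = 4.26e-08), from 5.10 to 5.59 FPKM to 10.2 to 10.5 FPKM. *Junb* rose 1.45-fold (1.37 to 1.52; limma adjusted p = 7.08e-07) and *Atf3* 1.41-fold (0.41 to 0.58 on the log2 scale; limma adjusted p = 4.60e-06). *Jund* changed by -0.28 ± 0.03 (SE) on the log2 scale, with 8.02e-05 as the limma adjusted p. In each of these 4 genes the 2 groups were separated, but how many of all genes tested were separated likewise was not counted. *Fosl1* passed only without EpA and fatostatin replicate 1, with a log2 fold change of 0.78 and an adjusted p of 0.0413 against 0.50 and 0.196 with all libraries. *Atf2* did not pass here (log2 fold change 0.08, limma adjusted p = 0.167), nor did *Fos*, *Jun* or *Mafk*. This comparison shares no library with EpA against DMSO, and *Fosl2*, *Junb*, *Jund* and *Atf3* were called in both, each in the same direction. With 1.2-fold in place of 1.5-fold, 3 members were called with EpA, 1 with fatostatin, 1 when fatostatin was added to EpA and 4 when EpA was added to fatostatin, against 10.9%, 5.27%, 6.17% and 12.3% of all genes.

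Whether the effect of EpA differed with and without fatostatin was tested as an interaction. No member passed in limma, against 0.0437% of all genes (6 of 13733), with 3 members at an unadjusted p under 0.05, against 7.89%. These were *Fosl2* (0.28 ± 0.06 SE on the log2 scale, 95% interval 0.15 to 0.41, adjusted p = 0.260), *Atf3* (0.20 ± 0.06, 0.07 to 0.32, adjusted p = 0.369) and *Fos* (0.88 ± 0.39, 0.02 to 1.75, adjusted p = 0.616). For *Junb* the difference was 0.10 with an interval of -0.0046 to 0.20, and for *Jund* -0.06 with an interval of -0.16 to 0.04. The voom fit called *Fosl2*, with an adjusted p of 0.0221, against 0.146% of all genes. As ratios of group means with no test, both compounds together stood to DMSO at 1.82 for *Atf3*, 1.73 for *Fosl2*, 1.28 for *Junb*, 0.824 for *Jund*, 1.12 for *Atf2*, 1.04 for *Jun*, 1.03 for *Mafk*, 0.978 for *Fos* and 0.958 for *Fosb*. The ratio of *Fosl1* was 3.34, from 4 to 7 reads per library with DMSO and 11 to 30 with both. The summed FPKM of the 5 myeloid markers was 1.28 to 1.38 with DMSO, 1.24 to 1.77 with EpA, 1.57 to 2.38 with fatostatin and 1.86 to 2.77 with both, most of it *Cd68*, with *Lyz2*, *Csf1r* and *Cd14* at 0 in at least 1 library. Its part in the *Atf3* result was not tested.

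The sequences upstream of *Atf3*, *Jun* and *Junb* are shown because, of the 9 windows searched, those of *Atf3* and *Jun* held matches to ATF and JUN motifs, although only *Atf3* moved, and because *Junb* moved without one. *Fosl2* and *Jund* also moved without a match and are not shown. RefSeq gave a start site window on GRCm38.p6, 250 bases before to 50 after the start, for 9 of the 10 genes, *Fosl1* not among them. The RefSeq start of *Jund* lies 1210 bases before the GENCODE start of the gene, so its window does not adjoin the exon that was counted. The 250 bases before the start are printed 5′ to 3′ on the strand of the gene, with the motif matches in capitals. *Atf3* is at chr1:191183334-191183583 and *Jun* at chr4:95052223-95052472, both on the minus strand, and *Junb* at chr8:84978749-84978998, also on the minus strand. By GENCODE, the *Atf3* window lies in an intron of a longer *Atf3* transcript and touches the first exon of the main one, the *Jun* window lies in an intron of the antisense gene *Junos*, and the *Junb* window is intergenic.
Atf3: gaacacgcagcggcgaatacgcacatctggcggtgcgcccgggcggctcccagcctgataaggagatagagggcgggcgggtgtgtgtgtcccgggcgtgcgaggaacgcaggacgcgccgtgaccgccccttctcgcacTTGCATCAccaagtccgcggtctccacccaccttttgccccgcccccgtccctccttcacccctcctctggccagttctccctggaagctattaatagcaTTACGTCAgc
Jun: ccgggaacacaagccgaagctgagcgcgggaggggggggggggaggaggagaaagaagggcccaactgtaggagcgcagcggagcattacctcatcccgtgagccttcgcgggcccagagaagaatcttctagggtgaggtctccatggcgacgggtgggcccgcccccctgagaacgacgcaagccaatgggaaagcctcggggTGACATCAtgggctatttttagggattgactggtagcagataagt
Junb: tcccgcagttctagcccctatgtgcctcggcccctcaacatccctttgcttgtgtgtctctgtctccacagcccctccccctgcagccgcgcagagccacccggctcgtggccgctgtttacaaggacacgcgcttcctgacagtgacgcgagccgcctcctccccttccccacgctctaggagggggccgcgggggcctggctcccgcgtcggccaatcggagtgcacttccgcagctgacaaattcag
In *Atf3*, TTACGTCA lay 10 to 3 bases before the start, 7 of 8 letters of the palindromic cAMP response element, and TTGCATCA, the form read from the opposite strand as TGATGNAA at composite C/EBP and ATF sites, 110 to 103 bases before it. In *Jun*, TGACATCA lay 45 to 38 bases before the start, and a site of this form in the *Jun* promoter is known to bind JUN and ATF2. The motifs were searched on both strands over all 300 bases, and TNACGTCA occurred in 2.93% of all 32851 RefSeq windows, TGATGNAA in 3.97% and TGACNTCA in 8.83%. The heptamer TGANTCA, the consensus AP-1 site, occurred in 7.81% of windows and in none of these 9, nor did the STAT motif TTCNNNGAA (8.30%) or the CArG box bound by SRF (1.63%). Sequence more than 250 bases before the start was not searched, so these promoters may hold such sites farther upstream. TATAAA, in 13.6% of windows, was found in *Fos*, 33 to 28 bases before the start, and in *Junb* at the annotated start itself, past the printed bases. TNACGTCA and TGACNTCA overlap in the letters of the palindromic element, and the motifs were chosen after the sequences had been read.

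The 6 lists of genes around AP-1 were chosen with earlier results of these data known. Their counts stand beside the shares of all genes that were higher and lower at the same threshold. These shares were 14.3% and 13.1% with EpA, 7.69% and 6.31% with fatostatin, 9.22% and 6.79% when fatostatin was added to EpA, and 16.2% and 13.3% when EpA was added to fatostatin. Past both thresholds, the shares were 3.38%, 1.86%, 1.99% and 3.75% in the same order.

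Proteins that dimerize or compete with AP-1 included a single gene past both thresholds. *Crem*, the cAMP-responsive element modulator, went from 20.6 to 21.3 FPKM over the DMSO libraries to 32.0 to 33.0 FPKM with EpA, a log2 fold change of 0.63 (limma adjusted p = 5.73e-09), and rose by 0.71 when EpA was added to fatostatin (limma adjusted p = 1.60e-09). Of 25 genes tested in this list of BATF, ATF/CREB, MAF, BACH, NFE2 and C/EBP proteins, 8 were higher and 2 lower with EpA, and *Creb1* had the largest fall, from 7.63 to 6.51 FPKM (limma adjusted p = 0.00225). With fatostatin alone 1 was higher and 5 were lower, led by *Maf*, an activator of *Il4*, which fell from 16.7 to 11.9 FPKM (limma adjusted p = 5.12e-07). With fatostatin added to EpA 2 were higher and 9 lower, *Maf* among the lower with a log2 fold change of -0.45 (limma adjusted p = 1.17e-06). With EpA added to fatostatin 6 were higher and 2 lower. The 10 called with EpA became 6 without EpA replicate 1 or 3, and the 11 called when fatostatin was added to EpA became 7 without EpA replicate 1 or 2 or EpA and fatostatin replicate 2. The list's median log2 fold change was 0.02, -0.06, -0.03 and 0.03 in these 4 comparisons, beside 0.00, 0.01, 0.01 and 0.01 for all genes.

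**Figure D5:**
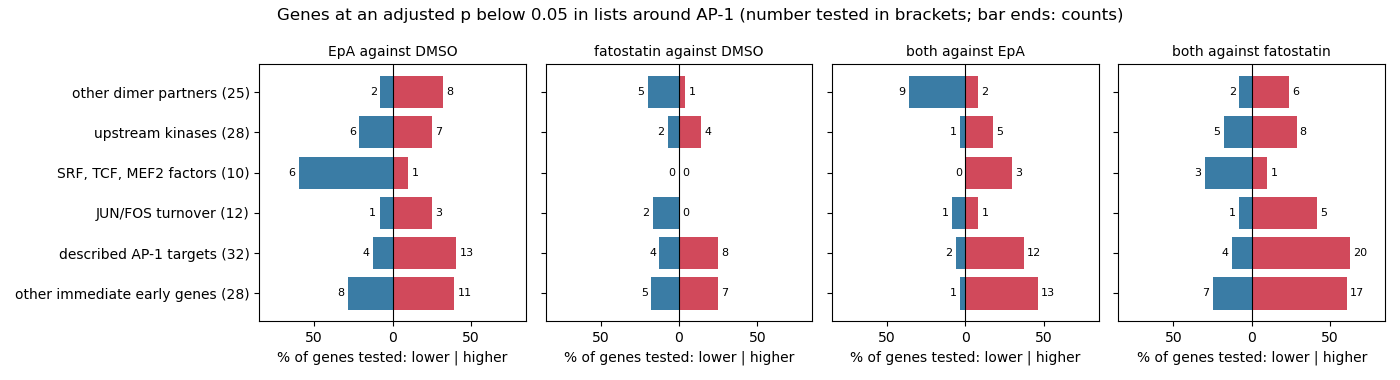
Share of the genes tested in 6 lists around AP-1 (rows) that were higher (right, red) or lower (left, blue) at an adjusted p below 0.05, in percent, in 4 comparisons (panels); numbers at the bar ends are gene counts. The list of described AP-1 targets, chosen with earlier results of these data known, has 13 genes higher and 4 lower with EpA, and 20 and 4 for EpA beside fatostatin.

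The kinases upstream of AP-1 changed in both directions. Among 28 genes of the ERK, JNK and p38 modules, 7 were higher and 6 lower with EpA, 4 and 2 with fatostatin, 5 and 1 when fatostatin was added to EpA, and 8 and 5 when EpA was added to fatostatin. The 6 called with fatostatin became 2 without DMSO replicate 3 and 3 without fatostatin replicate 1 or 2. *Mapk12*, encoding p38γ, was the only one past both thresholds, at 0.990 FPKM with fatostatin and 1.72 FPKM with both (log2 fold change 0.73, limma adjusted p = 0.000935). *Map2k6*, which activates p38, fell from 8.51 to 7.40 FPKM with EpA (limma adjusted p = 0.0130), a call lost without EpA replicate 3 (adjusted p = 0.0532). *Mapk8*, encoding JNK1, rose from 5.73 to 6.71 FPKM with fatostatin (limma adjusted p = 0.00966). *Rps6ka5*, encoding MSK1, fell from 2.46 to 2.10 FPKM (limma adjusted p = 0.0298), and that call was lost without any 1 of the 6 libraries, at adjusted p of 0.0510 to 0.0903. The change of *Mapk12* with EpA alone, from 1.10 to 1.56 FPKM at a limma adjusted p of 0.0128, did not pass without DMSO replicate 2 (0.0520) or EpA replicate 2 (0.0503).

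Factors that bind the *Fos* and *Jun* promoters (SRF, its ELK and MRTF partners, MEF2, CREB1 and STAT3) were mostly lower with EpA. Of 10 tested, 1 was higher and 6 were lower. *Elk4*, a ternary complex factor of SRF, fell from 15.5 ± 0.583 to 12.7 ± 0.404 FPKM (SD, n = 3; limma adjusted p = 0.000741), and *Stat3* was the one that rose, from 60.6 to 67.4 FPKM (limma adjusted p = 0.000339). None of the 10 passed with fatostatin alone in limma (2 at an unadjusted p under 0.05, both higher, and 1 in voom on recovered reads, against 26.8% and 16.7% of all genes in either direction), with 3 higher and 0 lower when fatostatin was added to EpA, and 1 higher and 3 lower for EpA beside fatostatin. The 3 higher when fatostatin was added to EpA became 1 with no minimum, with median-ratio scaling, with a replicate block, and without EpA replicate 2 or 3 or EpA and fatostatin replicate 2 or 3. For EpA beside fatostatin, 5 were lower by voom, against 15.1% of all genes, and 6 at an unadjusted p under 0.05, against 18.1%. The median log2 fold change with EpA was -0.16, beside 0.00 for all genes. *Creb1* stands in this list and in that of the dimer partners.

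Of 12 genes of JUN and FOS protein turnover, 6 passed when EpA was added to fatostatin, 5 of them higher. Of the 12 tested, 3 were higher and 1 was lower with EpA, 0 and 2 with fatostatin, 1 and 1 when fatostatin was added to EpA, and 5 and 1 when EpA was added to fatostatin. The 2 called when fatostatin was added to EpA became 0 without EpA replicate 2 or EpA and fatostatin replicate 3, and 1 without any other library of these groups. With fatostatin alone, the 0 genes higher in limma were 1 at an unadjusted p under 0.05 and 1 in voom. *Itch*, the ubiquitin ligase that degrades JUN and JUNB in T cells, had 10.5, 10.8, 9.23 and 10.3 FPKM with DMSO, EpA, fatostatin and both, and fell with fatostatin (log2 fold change -0.18, limma adjusted p = 0.00376). *Ndfip1*, an adaptor that activates ITCH, fell from 110.0 to 93.3 FPKM with EpA (log2 fold change -0.24, limma adjusted p = 2.15e-06). *Cop1*, a ubiquitin ligase for JUN, rose from 2.39 to 2.77 FPKM at a limma adjusted p of 0.0314. That call was lost without DMSO replicate 2 or 3 or any EpA library, at adjusted p of 0.0504 to 0.114.

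Among genes described as AP-1 targets, a list chosen with earlier results of these data known, more passed the test upward than downward. Of this list, the study had reported *Il9*, *Il4*, *Il5*, *Il13*, *Tnf* and *Fasl* as higher with EpA. The direction of the counts was thus partly fixed by the choice of genes. Of 32 tested, 13 were higher and 4 lower with EpA (5 past both thresholds), 8 and 4 with fatostatin (3), 12 and 2 when fatostatin was added to EpA (3), and 20 and 4 when EpA was added to fatostatin (6). The largest was *Il9*, from 54.6 ± 3.38 to 640.0 ± 17.5 FPKM with EpA. *Il13*, another type 2 cytokine, went from 8.82 to 16.0 FPKM (log2 fold change 0.84, limma adjusted p = 5.17e-06), and *Plaur*, the urokinase receptor, from 0.897 to 1.90 FPKM (1.01, adjusted p = 0.00109). *Cdkn1a*, encoding the cell cycle inhibitor p21, was the one past both thresholds in every one of the 4 comparisons, with 26.2, 52.2, 52.2 and 87.2 FPKM with DMSO, EpA, fatostatin and both. *Entpd1*, the ectonucleotidase CD39, fell from 2.46 to 0.911 FPKM with EpA (log2 fold change -1.34, limma adjusted p = 4.27e-06), and *Timp1*, an inhibitor of metalloproteases, fell from 4.05 to 2.31 FPKM with fatostatin (-0.78, limma adjusted p = 0.000569). *Tnf* rose from 3.92 to 5.90 FPKM when EpA was added to fatostatin (0.59, limma adjusted p = 0.000834), and *Il5* from 0.771 to 1.58 FPKM when fatostatin was added to EpA (0.95, limma adjusted p = 0.00121). The list's median log2 fold change was 0.18, 0.02, 0.12 and 0.33 in the 4 comparisons, beside 0.00, 0.01, 0.01 and 0.01 for all genes.

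Other immediate early genes, which respond to stimulation and to handling as *Fos* does, changed in both directions with EpA. Of 28 tested, 11 were higher and 8 lower with EpA (6 past both thresholds), 7 and 5 with fatostatin (2), 13 and 1 when fatostatin was added to EpA (2), and 17 and 7 when EpA was added to fatostatin (6). With EpA, *Nr4a2*, an orphan nuclear receptor, rose from 1.45 to 3.56 FPKM (log2 fold change 1.25, limma adjusted p = 2.19e-06) and *Ier3* from 10.4 to 16.3 FPKM (0.65, limma adjusted p = 1.39e-05). *Zfp36*, which destabilizes AU-rich mRNAs, fell from 7.71 to 4.78 FPKM (-0.68, limma adjusted p = 2.59e-05), and *Klf2*, a quiescence factor, fell from 2.86 to 1.24 FPKM (-1.15, limma adjusted p = 0.000481). *Nr4a3* had 2.61, 2.65, 5.32 and 7.61 FPKM in the 4 groups, with a rise of 1.49 on the log2 scale when fatostatin was added to EpA (limma adjusted p = 7.25e-09). *Gadd45b*, a stress-response gene, rose from 13.2 to 20.4 FPKM when EpA was added to fatostatin (0.63, limma adjusted p = 1.44e-06). In the interaction, 12 of the 28 were higher and 0 lower at an unadjusted p under 0.05, against 7.89% of all genes in either direction, and 1 passed the adjusted test. *Nr4a3* and *Cdkn1a* were the 2 genes of the lists that passed the interaction test, at 0.49 and -0.25 on the log2 scale (limma adjusted p = 0.0372 for each). Leaving out any 1 library ended the *Nr4a3* call, at adjusted p of 0.0716 to 0.147, and the *Cdkn1a* call was lost at 0.0503 to 0.147 except without fatostatin replicate 1. With all libraries kept, a replicate block ended both calls (limma adjusted p = 0.0638 for each). The *Nr4a3* call was also lost with no minimum (0.0562), on TPM (0.0653) and with median-ratio scaling (0.053), and the *Cdkn1a* call with no trend (0.125). The part of stimulation or handling in the values of *Fos*, *Fosb* and *Atf3* was not tested.

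The genes whose pattern over the 12 libraries was most like that of a member, by Pearson's r of log2(FPKM + 0.1) among 10297 other genes averaging 1 FPKM or more, were named by a set rule. The libraries share 4 groups, so r over all 12 mostly describes the group means where these differ, and r around the group means is given beside it. *Il21*, a cytokine gene, was nearest to *Fosl2* (r = 0.99 over 12 libraries, 0.60 around the group means), with 1.27, 3.28, 1.15 and 4.03 FPKM with DMSO, EpA, fatostatin and both, followed by *Ubqln4* (0.99 and 0.82). *Slc16a3*, a lactate transporter, was nearest to *Junb* (0.99 and 0.60), followed by *Gatm*, a creatine synthesis enzyme (0.98 and -0.02). *Jund* was nearest to *Yipf1* (0.99 and 0.92) and *Cd3e* (0.97 and 0.71), and *Atf3* to *Mfhas1* (0.99 and 0.69) and *Nabp1* (0.99 and 0.43). *Atf2* was nearest to *Tmem131* (0.94 and 0.80) and *Ppp4r3b* (0.94 and 0.89). For the flat members *Jun* and *Mafk* no gene reached an r of 0.9; their nearest were *Rbis* (0.79 and 0.87) and *Tbc1d8b* (0.78 and 0.80), and *Zscan22* (0.78 and 0.82) and *Prrg2* (0.77 and 0.79). An r above 0.9 was shared by 448 genes with *Fosl2*, 427 with *Junb*, 266 with *Jund*, 211 with *Atf3* and 14 with *Atf2*. Between members, r over the 12 libraries was 0.95 for *Fosl2* and *Junb* and -0.96 for *Fosl2* and *Jund*, and -0.48 and -0.36 around the group means.

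Several members share exon bases with a neighbour, and the strand setting of the counting was not stated in the sources used here. On the GENCODE M21 annotation, *Fosl1* shared 1163 bases (57.2% of its exon length) with *Ccdc85b* on the opposite strand, which stood at 2.13 to 2.99 FPKM. *Jund* shared 877 bases (52.6%) with the antisense gene *Gm11175*, and *Junb* 173 bases (7.52%) with *Prdx2*, at 60.3 to 73.7 FPKM. *Jun* shared 232 bases with *Junos*, *Mafk* 169 bases with *Tmem184a* and *Atf2* 167 bases with *Gm27421*. The few reads of *Fosl1* and part of those of *Jund* are therefore uncertain as to their gene, whereas *Fos*, *Fosb* and *Fosl2* shared no exon base with another gene and *Atf3* 0 bases.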

How the data were processed

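Total RNA of Th9 cells was made into TruSeq RNA libraries and sequenced by the authors, 3 libraries for each of 4 groups taken from the sample titles and treatment labels. The authors trimmed the reads, aligned them to GRCm38 with HISAT2 and counted them on genes with featureCounts, and deposited FPKM values per library. The annotation release and strand setting were not given in the sources used here. No column of the table lacked a sample (0), and 301 repeat lines held the values of a gene already listed.

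FPKM values were tested with limma 3.58.1 in R 4.3.3 (moderated linear model with intensity trend, two-sided) on log2(FPKM + 0.1), over 13733 genes averaging 0.1 FPKM or more, with all 12 libraries in 1 fit and Benjamini-Hochberg adjustment over all genes tested. A gene passed at an adjusted p below 0.05, and passed both thresholds with a change of at least 1.5-fold as well. Fold changes on this scale understate those of genes near 0.1 FPKM. An exact permutation test of 3 against 3 libraries cannot go below 0.1 and was not used. Reads were recovered from FPKM with GENCODE M21 exon lengths: 98.3 to 98.4% of values above 0, for genes with a length, came out whole within 0.02. Precision for *Fos*, *Fosb* and *Fosl1* is limited by their read counts. Summaries were made with pandas 2.3.3 and numpy 2.4.6.

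The members and the 6 gene lists were chosen with earlier results of these data known. Genes named beside the members were, from each list, those averaging 1 FPKM or more that passed both thresholds in any comparison, and the largest change in each direction with EpA and with fatostatin. For likeness, the 2 genes with the highest r for each member were named. Alternatives were other pseudocounts (1 and 0.01), no minimum or a minimum of 1 FPKM, TPM, median-ratio scaling, only the groups compared, no trend, a replicate block, voom on recovered reads, a 1.2-fold threshold, and leaving out each library.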

Additional observations from a re-analysis of the deposited data

Results flagged for a closer look

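*Fosl2* stood out because every fatostatin library lay below every DMSO library, whereas every library with both compounds lay above every EpA library. How many of all genes tested did so was not counted. The difference between the effects of fatostatin beside EpA and alone was 0.28 on the log2 scale (95% interval 0.15 to 0.41) at a limma adjusted p of 0.260, and 0.0221 by voom on recovered reads. The fold with fatostatin alone was 0.891 (95% interval 0.837 to 0.949; limma adjusted p = 0.0196), a call lost without DMSO replicate 3 (0.0783), without fatostatin replicate 1 (0.0557) or 2 (0.0734) and with only the groups compared (0.0797), and the fold with fatostatin beside EpA was 1.08 (1.02 to 1.15; limma adjusted p = 0.0874).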

How the results depend on the processing

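The 45 member results were recomputed under 755 alternatives, of which 13 lost a call, 7 gained one and 35 changed sign, all of the last among results that had not passed. *Fosl2*, *Junb*, *Jund* and *Atf3* for either effect of EpA, and *Atf3* and *Junb* with fatostatin, kept their calls and directions throughout. Members past both thresholds with EpA numbered 2 rather than 1 with only the groups compared and by voom, and 1 to 2 with a library left out. At 1.2-fold they numbered 3 with EpA, 1 with fatostatin, 1 for both against EpA and 4 for both against fatostatin, against 10.9%, 5.27%, 6.17% and 12.3% of all genes. For both against EpA, 2 members passed by voom and 1 to 2 with a library left out, and 0 to 1 were past both thresholds. For both against fatostatin 1 to 2 were past both thresholds with a library left out. In the interaction, voom called 1 member. The cause was not tested. With a library left out, log2 fold changes with EpA ran from -0.035 to 0.10 for *Jun* and -0.034 to 0.045 for *Mafk*. With fatostatin they ran from -0.29 to 0.20 for *Fos*, -0.012 to 0.14 for *Jun*, -0.022 to 0.041 for *Jund* and -0.013 to 0.037 for *Mafk*. For both against EpA they ran from -0.0066 to 0.086 for *Jun*, -0.0026 to 0.071 for *Atf2* and -0.026 to 0.080 for *Mafk*. For both against fatostatin they ran from -0.23 to 0.26 for *Fos*, -0.058 to 0.078 for *Jun* and -0.015 to 0.066 for *Mafk*. In the interaction they ran from -0.045 to 0.46 for *Fosl1*, -0.087 to 0.060 for *Jun* and -0.033 to 0.073 for *Mafk*, and *Jun* was -0.010 under median-ratio scaling and -0.0021 by voom. Same-numbered libraries did not deviate together (r of -0.09 to 0.11), and with a replicate block 5, 3, 1 and 4 members passed in the 4 comparisons, as without it. Over all genes, those past both thresholds fell from 464, 255, 273 and 515 to 141, 89, 84 and 161 with a pseudocount of 1 and to 216, 143, 147 and 252 with a minimum of 1 FPKM. Genes passing the interaction test numbered 6, and 20 by voom, 10 with a pseudocount of 0.01, 1 with TPM, 0 with the block and 0 to 2 with a library left out. Of 510 alternatives of the list counts 57 moved by over 1.5 times. Dimer partners numbered 6 to 11 with EpA (10 as reported) and 7 to 11 for both against EpA (11), upstream kinases 2 to 8 with fatostatin (6), *Fos* and *Jun* promoter factors 0 to 1 with fatostatin (0) and 1 to 4 for both against EpA (3), and turnover genes 0 to 2 for both against EpA (2). In the interaction, AP-1 targets numbered 0 to 3 (1) and immediate early genes 0 to 1 (1). Also, 10 of 69 calls of named list genes were lost under at least 1. Few reads limit *Fos*, *Fosl1* and *Fosb*.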
